A study of Catharanthus roseus with 35 samples.

Results

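The fourth and the first leaf pair of Catharanthus roseus plants kept indoors were compared by RNA-seq. Leaf pairs were counted from the shoot apex, so leaf pair 1 holds the youngest leaves and leaf pair 4 the oldest of those taken. The comparison rests on 6 of the 35 samples of the series, chosen by the leaf pair and the growth condition in their labels. It takes 3 samples of leaf pair 4 indoors and 3 of leaf pair 1 indoors, and the count table has rows for 35722 genes. Position on the shoot stands for age here, since no leaf was followed in time.

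All plants were of the cultivar 'Little Bright Eye', were in flower and had no genetic change or chemical treatment. The indoor plants stayed in a growth chamber at 25 °C with 16 h of light and 8 h of darkness. The outdoor plants had been moved to direct sunlight and gave 3 samples of leaf pair 4 and 3 of leaf pair 1. Below, the indoor change is set beside theirs. Their samples also enter the gene filter, the scaling and the estimate of spread behind the indoor test. Central veins were removed before extraction, each library came from the remaining leaf tissue of 1 plant, and leaf pairs 4 and 1 of a condition came from the same 3 plants.

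C. roseus leaves make monoterpenoid indole alkaloids (MIAs), among them the precursors of the anticancer drug vinblastine. The iridoid branch starts in the internal phloem-associated parenchyma (IPAP) and ends in the epidermis with secologanin, which strictosidine synthase joins to tryptamine. The central pathway leads from strictosidine to catharanthine and tabersonine. The late pathway turns tabersonine into vindoline, with its last steps in idioblasts and laticifers, scattered cells that store alkaloids. A peroxidase is thought to couple catharanthine to vindoline. As a leaf of a broad-leaved plant matures, cell division and wall loosening give way to photosynthesis and carbon export.

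The libraries held 12931050, 11786879 and 12149689 counts for leaf pair 4 indoors, and 15035709, 13941446 and 11965685 for leaf pair 1 indoors. At least 1 count was found for 19196 to 19499 genes in leaf pair 4 and for 19589 to 19723 genes in leaf pair 1. The 10 most abundant genes took 5.82% to 6.46% of the counts in leaf pair 4 and 3.50% to 4.51% in leaf pair 1. Levels are given below as CPM, counts scaled to a common library size after TMM. This method takes most genes as unchanged between samples and sets aside genes with extreme ratios or levels. They compare samples within a gene and not genes with each other, since gene length is not taken into account.

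With TMM scaling, genes higher and genes lower in the older leaves were about equal in number, a balance that depends on the scaling. Of 17299 genes with enough counts to be tested, 1995 (11.5%) were higher and 1862 (10.8%) were lower in leaf pair 4 than in leaf pair 1. A gene was called when edgeR's quasi-likelihood test gave an adjusted p of at most 0.05 and its change was at least 2-fold. The fit included the outdoor samples, and with the 6 indoor samples alone 1796 genes were higher and 1886 lower. A change of at least 8-fold, a log2 fold change (FC) of 3 or more, was found for 301 of the genes called higher and 375 of those called lower. All 3 samples of leaf pair 4 lay above all 3 of leaf pair 1 for 34.9% of the genes tested, and below them for 29.8%. Scaled by total counts alone, 1484 genes were higher and 2513 lower, and the share of calls that were higher was 37.1% in place of 51.7%, with the median log2 FC of all genes at -0.19 in place of 0.05.

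Plant 1 differed less between its leaf pairs than plants 2 and 3. Among the genes called higher, the median log2 ratio of leaf pair 4 to leaf pair 1, after adding 0.5 CPM, was 1.05 in plant 1, 1.84 in plant 2 and 1.58 in plant 3. Among the genes called lower it was -0.99, -1.77 and -1.82. Leaf pair 1 of plant 1 was the leaf pair 1 sample nearest to leaf pair 4 for 1657 (83.1%) of the genes called higher and for 1552 (83.4%) of those called lower. Without plant 1 in either leaf pair, 2361 genes were higher and 2205 lower, of which 1910 and 1803 were among the calls made with all samples.

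The MIA pathway declined at its iridoid end, at catharanthine synthesis and in most of its late steps, while its reductases and acetyltransferase around stemmadenine stayed within the 2-fold limit. Of the 74 MIA genes the study annotated with an ID, 67 were tested. In leaf pair 4, 20 of them (29.9%) were lower and 11 (16.4%) were higher, with a median log2 FC of -0.45 against 0.05 over all genes tested. The study annotated these genes from knowledge of the pathway.

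**Figure D1:**
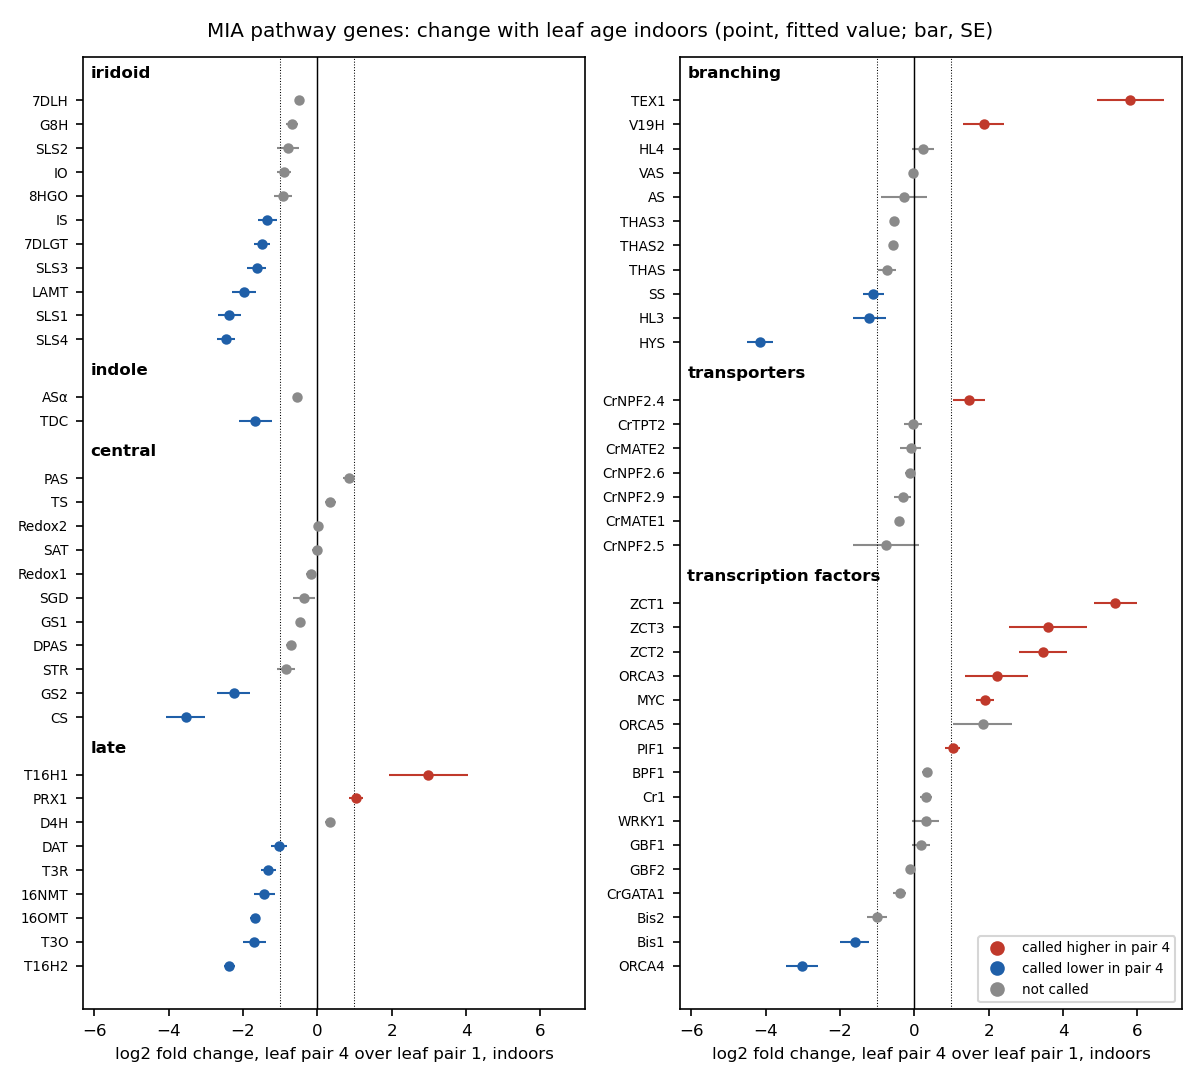
The plot of fold changes shows the 67 MIA genes tested, by part of the pathway, as the log2 fold change of leaf pair 4 over leaf pair 1 indoors (horizontal axis) with its standard error, red where called higher, blue where called lower and grey where not called. All 11 iridoid genes lie left of 0, and ZCT1, ZCT2, ZCT3 and TEX1 lie far to the right.

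Every one of the 11 iridoid genes was lower in all 3 samples of leaf pair 4 than in all 3 of leaf pair 1, and 6 of the 11 passed the test, with a median log2 FC of -1.34. The strongest falls were at the epidermal end. LAMT (CATHA_3427), which methylates loganic acid, had 85.8, 62.1 and 58.7 CPM in leaf pair 4, against 279, 250 and 284 CPM in leaf pair 1. The groups lay far apart and the log2 FC was -1.98 (SE 0.32, edgeR adjusted p = 0.00044). SLS1 (CATHA_8659), a secologanin synthase, had 144.5, 69.0 and 93.3 CPM in leaf pair 4, against 471, 534 and 582 CPM in leaf pair 1, a log2 FC of -2.37 (SE 0.31). SLS4 (CATHA_12635), another copy, had 42.1, 21.01 and 26.45 CPM in leaf pair 4, against 148, 155 and 190 CPM in leaf pair 1, a log2 FC of -2.46 (SE 0.25). Close copies can share reads, so the division of counts among the 4 SLS genes is uncertain. SLS3 fell with a log2 FC of -1.63, and SLS2 missed the 2-fold limit at -0.79.

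The first iridoid steps changed less. IS, iridoid synthase, had 62.4, 45.0 and 36.65 CPM in leaf pair 4, against 128, 115 and 123 CPM in leaf pair 1 (log2 FC -1.34, SE 0.25). 7DLGT, which glucosylates 7-deoxyloganetic acid, fell with a log2 FC of -1.48 (SE 0.22). G8H, geraniol 8-hydroxylase and the entry to the branch, was at 222, 183 and 155 CPM in leaf pair 4, against 333, 266 and 301 CPM in leaf pair 1. Its samples did not overlap, but its log2 FC of -0.69 (edgeR adjusted p = 0.0038) was under the 2-fold limit. The same was true of 8HGO at -0.93, IO at -0.90 and 7DLH at -0.49.

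On the indole side, TDC (CATHA_23616), tryptophan decarboxylase, had 164, 118 and 118 CPM in leaf pair 4, against 395, 440 and 435 CPM in leaf pair 1. The fall was 3.17-fold, a log2 FC of -1.67 (SE 0.45, edgeR adjusted p = 0.00881). ASα, the anthranilate synthase alpha subunit upstream of it, was lower in every leaf pair 4 sample but stayed under 2-fold at a log2 FC of -0.54.

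Along the central pathway, 2 of the 11 genes tested fell and the others stayed under the 2-fold limit. The oxidase GO was not analysed here. CS (CATHA_36896), catharanthine synthase, had 61.8, 12.5 and 13.8 CPM in leaf pair 4, against 268, 426 and 335 CPM in leaf pair 1. This was an 11.6-fold fall with a log2 FC of -3.54 (SE 0.52, edgeR adjusted p = 0.00024), and plant 1 kept the highest level of the 3 older leaves. TS, tabersonine synthase, which uses the same intermediate, had 685, 669 and 493 CPM in leaf pair 4, against 511, 509 and 426 CPM in leaf pair 1. Its groups overlapped, and its log2 FC of 0.35 (SE 0.14, edgeR adjusted p = 0.0462) was under the 2-fold limit. GS2, a geissoschizine synthase copy, fell to 19.2, 10.3 and 3.70 CPM in leaf pair 4, against 46.1, 61.3 and 51.4 CPM in leaf pair 1 (log2 FC -2.25, SE 0.45). GS1, its far more counted copy, was at a log2 FC of -0.45.

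PAS, precondylocarpine acetate synthase, went the other way without reaching 2-fold, with 69.6, 66.98 and 48.7 CPM in leaf pair 4, against 37.5, 34.9 and 31.0 CPM in leaf pair 1 (log2 FC 0.84, SE 0.16). Redox1, Redox2 and SAT, the reductases and the acetyltransferase of the stemmadenine steps, had log2 FCs of -0.18, 0.03 and -0.01, with overlapping samples. DPAS, dihydroprecondylocarpine synthase, was lower in every leaf pair 4 sample. Its log2 FC of -0.70 (SE 0.14, edgeR adjusted p = 0.00149) was under the 2-fold limit. STR, strictosidine synthase, had a log2 FC of -0.84 and SGD, strictosidine glucosidase, of -0.36.

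The late pathway split between its enzymes. Of 9 genes, 6 fell, 2 rose and D4H was not called, and 0 or 1 of these rises was called in each fit that left out 1 of the 6 samples. T16H2 (CATHA_9747), which hydroxylates tabersonine as the first step to vindoline, had 29.2, 27.4 and 27.5 CPM in leaf pair 4, against 117, 153 and 163 CPM in leaf pair 1. The older leaves lay close together, and the log2 FC was -2.36 (SE 0.15, edgeR adjusted p = 1.86e-05). The next enzymes, 16OMT, T3O, T3R and 16NMT, fell with log2 FCs of -1.68, -1.69, -1.31 and -1.42.

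The final steps to vindoline did not move together. D4H (CATHA_25357), desacetoxyvindoline 4-hydroxylase, had 1170, 1177 and 1098 CPM in leaf pair 4, against 972, 895 and 871 CPM in leaf pair 1. All leaf pair 4 samples were higher, but the log2 FC was only 0.33 (SE 0.13, edgeR adjusted p = 0.0487). DAT (CATHA_18617), the acetyltransferase that follows, had 103, 89.4 and 66.3 CPM in leaf pair 4, against 166, 176 and 184 CPM in leaf pair 1, a log2 FC of -1.02 (SE 0.22). The value lay close to the 2-fold limit and dropped below it, at -0.99 without leaf pair 1 replicate 3 and at -0.87 without leaf pair 4 replicate 3. PRX1 (CATHA_38736), the vacuolar peroxidase thought to couple vindoline and catharanthine, had 181, 168 and 225 CPM in leaf pair 4. In leaf pair 1 it had 115, 70.4 and 91.5 CPM. Its log2 FC of 1.05 (SE 0.19, edgeR adjusted p = 0.000692) was 0.89 without leaf pair 1 replicate 2 and 0.92 without leaf pair 4 replicate 3, both under the limit.

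T16H1, a second tabersonine hydroxylase that has been linked to flowers, was called higher at low levels, with 3.56, 2.92 and 0.63 CPM in leaf pair 4, against 0.51, 0.26 and 0.08 CPM in leaf pair 1 (log2 FC 2.99, SE 1.06). The call was lost in 5 of the 6 fits that left out 1 of these samples, with adjusted p of 0.051 without leaf pair 1 replicate 1, 0.0964 without its replicate 2, 0.0948 without its replicate 3, 0.109 without leaf pair 4 replicate 1 and 0.0809 without its replicate 2. T16H1 and T16H2 are close copies, so reads of the far more abundant T16H2 may count for either. T16H2 itself fell (log2 FC -2.36), and the sharing of reads was not tested.

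**Figure D2:**
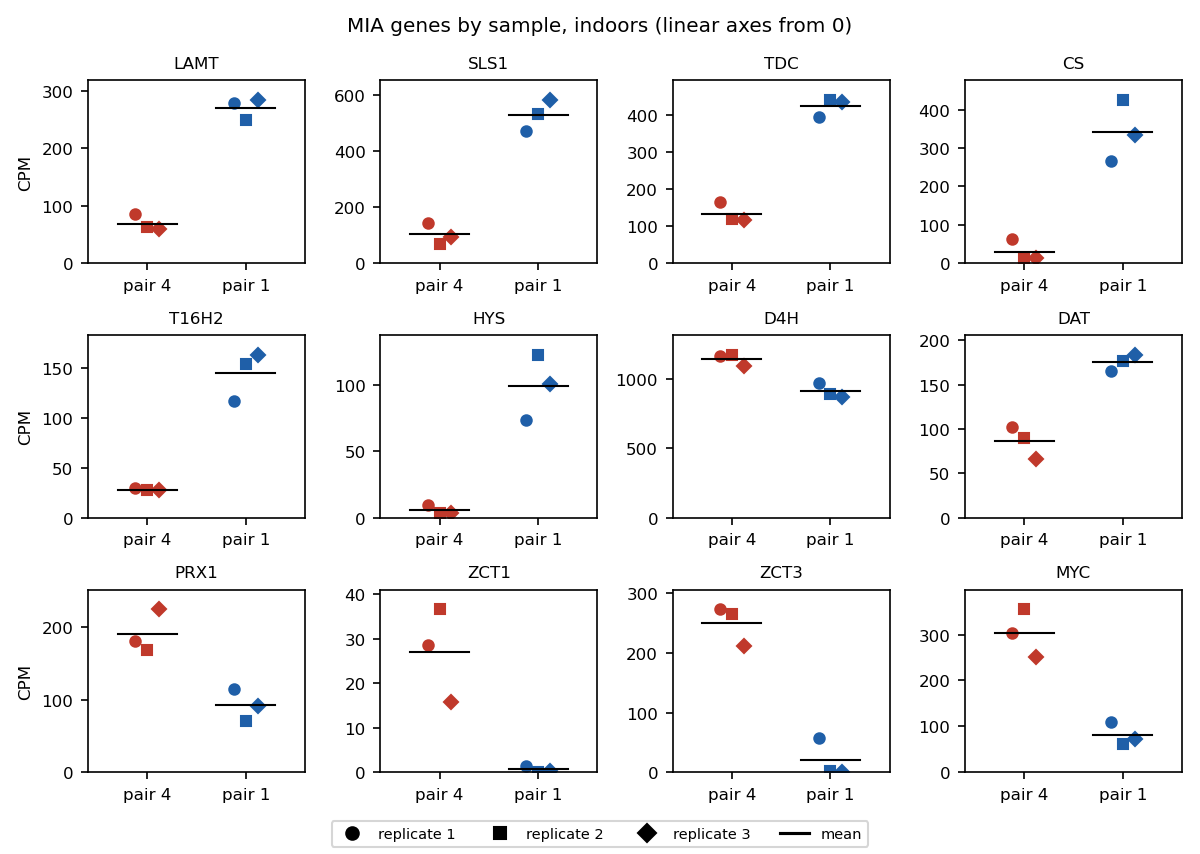
The plot of levels by sample shows CPM of 12 MIA genes (linear axes from 0) in leaf pair 4 (left, red) and leaf pair 1 (right, blue), 3 plants each, with the mean as a line. LAMT, SLS1, TDC, CS, T16H2, HYS and DAT lie lower in leaf pair 4, and PRX1, ZCT1, ZCT3 and MYC lie higher.

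In the branches that leave the vindoline route, the largest fall of all 67 genes was that of HYS (CATHA_14896), heteroyohimbine synthase. It had 9.69, 3.48 and 3.34 CPM in leaf pair 4, against 73.7, 123 and 101 CPM in leaf pair 1, a log2 FC of -4.15 (SE 0.35, edgeR adjusted p = 2.98e-05). The related THAS, THAS2 and THAS3, which make tetrahydroalstonine, lay at log2 FCs of -0.73, -0.58 and -0.55 and passed no 2-fold limit. SS, serpentine synthase, had 6.71, 4.99 and 2.98 CPM in leaf pair 4, against 9.56, 10.2 and 11.8 CPM in leaf pair 1 (log2 FC -1.10), and without leaf pair 4 replicate 3 its log2 FC was -0.84.

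TEX1 (CATHA_20509), tabersonine epoxidase, gave the largest rise, with 5.71, 8.67 and 2.35 CPM in leaf pair 4, against 0.06, 0.19 and 0 CPM in leaf pair 1. Its log2 FC was 5.81 (SE 0.90, edgeR adjusted p = 0.000324), and it rests on 4 counts in all of leaf pair 1 against 187 in leaf pair 4. V19H, vincadifformine 19-hydroxylase, had 3.73, 2.73 and 2.80 CPM in leaf pair 4, against 1.03, 0.45 and 1.07 CPM in leaf pair 1 (log2 FC 1.86), with an adjusted p of 0.0136 that was 0.0581 without leaf pair 1 replicate 2. HL3 was called lower (log2 FC -1.21, edgeR adjusted p = 0.039), and the call was lost without leaf pair 1 replicate 1 or 3 or leaf pair 4 replicate 2 or 3, at adjusted p of 0.133, 0.0773, 0.0801 and 0.133. TEX2, T19H, TAT and MAT, which act in roots and other organs or on tabersonine derivatives, were too low to be tested, with 0 to 0.19 CPM in each of the 6 samples.

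Among the known regulators of the pathway, 6 of 16 tested rose and 2 fell, and DESeq2 called 3 higher. The strongest rises were those of the 3 ZCT genes, zinc finger repressors of alkaloid gene promoters. ZCT1 (CATHA_38787) had 28.6, 36.6 and 15.7 CPM in leaf pair 4, against 1.48, 0.13 and 0.23 CPM in leaf pair 1, a 42.4-fold rise (log2 FC 5.41, SE 0.58, edgeR adjusted p = 5.26e-05). ZCT2 (CATHA_13529) had 4.47, 1.98 and 1.99 CPM in leaf pair 4, against 0.51, 0.06 and 0.15 CPM in leaf pair 1, a log2 FC of 3.46 (SE 0.64).

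ZCT3 (CATHA_28203) had 273, 266 and 211 CPM in leaf pair 4, against 58.0, 2.38 and 0.99 CPM in leaf pair 1. Leaf pair 1 of plant 1 thus stood far above the other young leaves, and the log2 FC of 3.60 carried an SE of 1.04 (edgeR adjusted p = 0.0132).

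MYC (CATHA_22858), a bHLH factor of the jasmonate response, had 304, 355 and 250 CPM in leaf pair 4, against 110, 61.1 and 72.7 CPM in leaf pair 1 (log2 FC 1.9, SE 0.24). PIF1, a phytochrome-interacting factor, had 597, 575 and 572 CPM in leaf pair 4, against 352, 239 and 262 CPM in leaf pair 1. Its log2 FC of 1.03 was 0.92 without leaf pair 1 replicate 2 and 0.97 without replicate 3, below the limit.

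The ORCA genes, AP2/ERF activators of the indole and iridoid branches, went in opposite directions. ORCA4 (CATHA_9516) had 1.49, 0.57 and 1.80 CPM in leaf pair 4, against 9.62, 11.8 and 10.4 CPM in leaf pair 1, a log2 FC of -3.02 (SE 0.42, edgeR adjusted p = 0.000177). ORCA3 (CATHA_9515) had 19.6, 31.2 and 4.15 CPM in leaf pair 4, against 9.37, 1.61 and 0.61 CPM in leaf pair 1, and its groups overlapped. Its log2 FC of 2.22 (SE 0.85, edgeR adjusted p = 0.0449) was not called without leaf pair 1 replicate 2 or 3 or leaf pair 4 replicate 1 or 2, with adjusted p of 0.15, 0.123, 0.0933 and 0.184. ORCA5 was not called (log2 FC 1.84, edgeR adjusted p = 0.0692), but was with the plant as a block (adjusted p = 0.0426). These neighbouring copies may share reads.

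Bis1, a bHLH activator of the iridoid genes, fell to 2.48, 2.35 and 1.26 CPM in leaf pair 4, against 6.93, 6.38 and 5.35 CPM in leaf pair 1 (log2 FC -1.61, SE 0.38). Bis2 had a log2 FC of -1, at the limit without passing it, and was called lower with the plant as a block (-1.03, edgeR adjusted p = 0.00668). GBF1, GBF2, BPF1, WRKY1, CrGATA1 and Cr1 were not called, with log2 FCs between -0.40 and 0.34.

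Of 7 transporters, only CrNPF2.4, a carrier of iridoid glucosides, was called, with 51.3, 38.9 and 47.1 CPM in leaf pair 4, against 27.1, 7.47 and 14.9 CPM in leaf pair 1 (log2 FC 1.47, SE 0.42). CrNPF2.9, which exports strictosidine from the vacuole, lay at -0.31, and CrTPT2, thought to export catharanthine to the leaf surface, at -0.03.

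Leaf pairs 2 and 3 of the same indoor plants were sequenced as Nanopore long reads, with 85976 to 507057 and 452863 to 509438 counts, so that 1 count was worth 1.96 to 11.6 CPM. They are set beside leaf pairs 1 and 4 without a test, since the platforms were counted and scaled in different ways. CS was at 268, 426 and 335 CPM in leaf pair 1, at 512, 426 and 327 CPM in leaf pair 2, at 374, 170 and 84.4 CPM in leaf pair 3 and at 61.8, 12.5 and 13.8 CPM in leaf pair 4. Within the long reads, it was thus lower in leaf pair 3 than in leaf pair 2 in each plant, and highest in plant 1 in both. LAMT gave 291, 162 and 131 CPM in leaf pair 2 and 144, 75.1 and 64.8 CPM in leaf pair 3, and HYS gave 58.2, 32.7 and 22.4 CPM in leaf pair 2 and 19.9, 8.83 and 0 CPM in leaf pair 3. Both were likewise lower in leaf pair 3 in each plant. ZCT1 was at 0, 0 and 4.08 CPM in leaf pair 2 and at 24.3, 8.83 and 5.89 CPM in leaf pair 3, and so higher there in each plant. Over the 20 MIA genes called lower in leaf pair 4, 16 were lower in leaf pair 3 than in leaf pair 2 in all 3 plants and 4 were mixed. Over the 11 called higher, 5 were higher in leaf pair 3 in all 3 plants and 6 were mixed. The share of all genes that moved in this way was not counted. MIA genes that were not called, such as G8H and 8HGO, also fell in all 3 plants. Some falls were near the floor. ORCA4 in plant 1 was at 11.6 CPM in leaf pair 2 and 2.21 CPM in leaf pair 3, 1 count in each. PRX1 went against its change in 2 plants, with 81.4, 49.3 and 81.7 CPM in leaf pair 2 and 48.6, 33.1 and 82.4 CPM in leaf pair 3. DAT did so in 2 plants, with 69.8, 84.8 and 63.3 CPM in leaf pair 2 and 94.9, 86.2 and 49.1 CPM in leaf pair 3.

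Genes that mark cell types moved unequally. The 8 epidermis markers (LAMT, SLS1 to SLS4, TDC, STR and 16OMT) summed to 1049, 810.5 and 758.5 CPM in leaf pair 4, against 2535, 2654 and 2830 CPM in leaf pair 1. All 8 lay lower in leaf pair 4 and 6 passed the test. One of these, 16OMT, was also raised in idioblasts over mesophyll cells in the study, so it does not mark the epidermis alone. It gave 130, 114 and 121 CPM of the sum in leaf pair 4, against 317, 432 and 417 CPM in leaf pair 1. The 6 IPAP markers, which are the iridoid genes up to 7DLH, summed to 759.5, 601.9 and 556.4 CPM in leaf pair 4, against 1285, 1097 and 1132 CPM in leaf pair 1. The idioblast pair D4H and DAT summed to 1272, 1266 and 1164 CPM in leaf pair 4, against 1137, 1072 and 1055 CPM in leaf pair 1, but its members went opposite ways. No marker of these lists was at 0 in any sample. Fewer cells of a type and less RNA per cell cannot be told apart in whole leaves, and the markers are themselves genes of the pathway, so their part in its change was not tested.

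The study listed 25 genes with the largest fold in idioblasts over mesophyll cells. In leaf pair 4, 2 (8%) rose, 3 (12%) fell and 20 were not called, with a median log2 FC of -0.28. Their summed level was 2246, 2235 and 1627 CPM in leaf pair 4, against 2309, 2531 and 2370 CPM in leaf pair 1. Those that rose were 2 DUF679 domain membrane proteins, CATHA_33483 (log2 FC 3.41) and CATHA_33482 (log2 FC 2.10), of unknown function in this plant. Besides DAT and SS, the premnaspirodiene oxygenase-like CATHA_29024, a cytochrome P450, fell with a log2 FC of -1.06, and without leaf pair 4 replicate 3 it was at -0.86 and not called. A second list of the study, partly overlapping, ranks idioblast-raised genes by their level there. Of its 24 genes tested, 9 (37.5%) rose and 0 fell, with a median log2 FC of 0.78. Over all genes tested the shares were 11.5% and 10.8%. CATHA_29872, CATHA_26934, CATHA_35751 and CATHA_34966, named below, are on this second list. Of the 3 markers of photosynthetic tissue, 1 RuBisCO activase, CATHA_711, was at 0 in 5 of the 6 samples and at 0.17 CPM in the other, and another, CATHA_702, was present in every sample. The list summed to 138.6, 181.7 and 154.8 CPM in leaf pair 4, against 85.2, 49.9 and 60.4 CPM in leaf pair 1.

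The remaining genes could be described only where the study's readable tables give them a name. Those tables were chosen on samples of this series and favour genes high in idioblasts, so they are not a fair sample: of 1089 described genes tested outside the MIA list, 238 (21.9%) were higher and 106 (9.73%) lower, against 11.5% and 10.8% of all genes tested. The lists below are to be read against these shares. Over all 20 lists made from words in the descriptions, 316 genes were tested, of which 83 (26.3%) were higher and 26 (8.23%) lower.

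**Figure D3:**
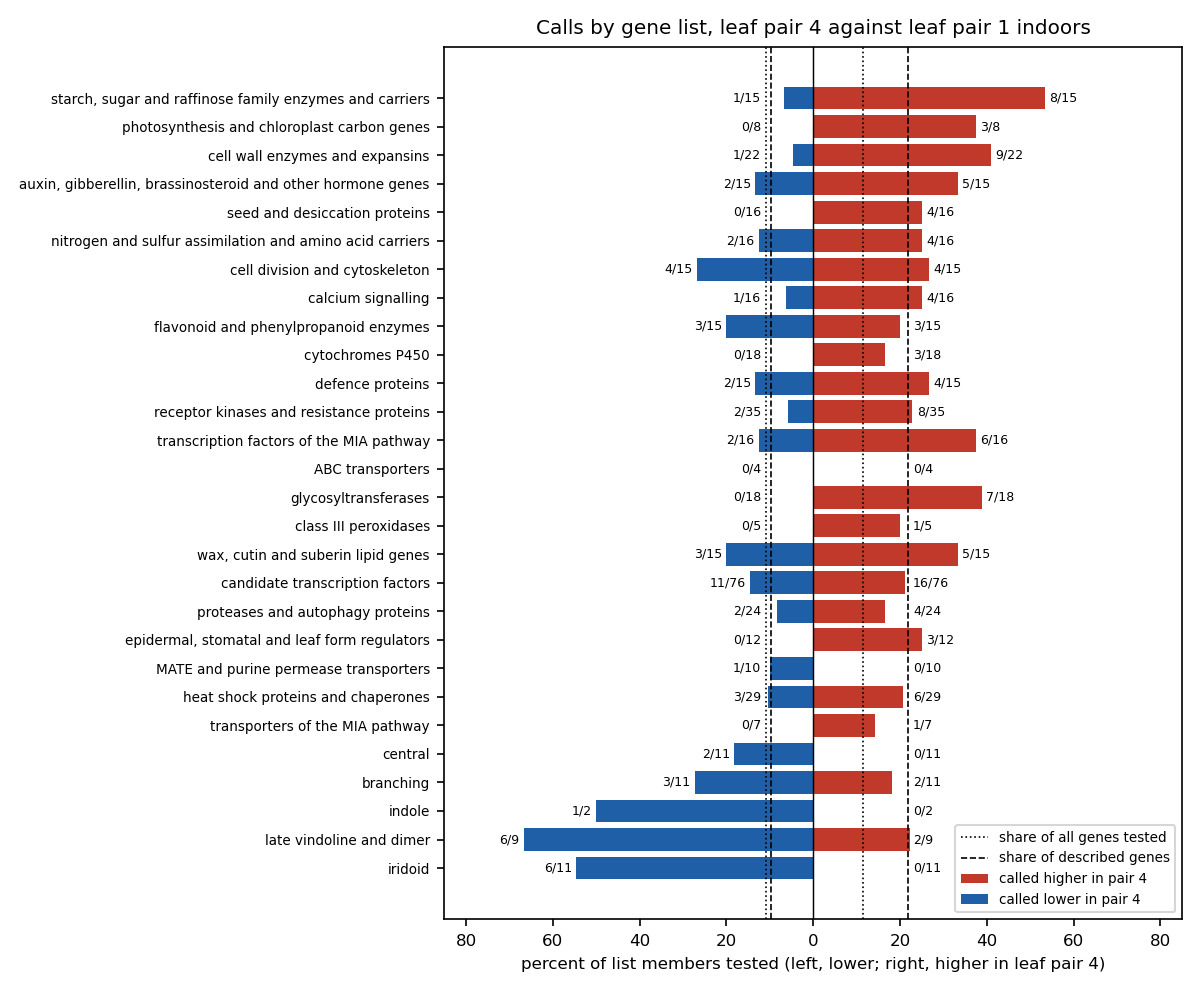
The plot of calls by list shows the percent of tested members called lower (left, blue) or higher (right, red) in leaf pair 4, with the shares of all genes tested as dotted lines and those of described genes outside the MIA list as dashed lines. Many lists end near the right dashed line, and starch and sugar genes (8 of 15 higher) and iridoid genes (6 of 11 lower) lie beyond the dashed lines.

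Carbon metabolism rose in many of its genes. Of 15 starch, sugar and raffinose family genes, 8 were higher and 1 lower in leaf pair 4, the fall being lost without leaf pair 4 replicate 2 or 3, with a median log2 FC of 1.27. A beta-amylase, which releases maltose from starch, CATHA_23527, had 212, 197 and 279 CPM in leaf pair 4, against 47.5, 8.05 and 13.2 CPM in leaf pair 1. This was a 9.98-fold rise (log2 FC 3.32, SE 0.54, edgeR adjusted p = 0.000412), with plant 1 again the highest of the young leaves. Another beta-amylase, CATHA_18104, one of the idioblast genes above, was at a log2 FC of -0.66 and not called, so the rise was not shared by both.

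The hexose transporter CATHA_27855 had 10.5, 9.23 and 15.6 CPM in leaf pair 4, against 3.21, 0.64 and 1.45 CPM in leaf pair 1 (log2 FC 2.72, SE 0.52). A cell wall invertase, CATHA_35751, which splits sucrose outside the cell, rose with a log2 FC of 2.31, and CATHA_10454, a raffinose family galactosyltransferase, with one of 1.80. A malic enzyme, CATHA_34966, had 1255, 1182 and 1321 CPM in leaf pair 4, against 618.4, 377.4 and 482.1 CPM in leaf pair 1 (log2 FC 1.35, SE 0.18). It was named after its values were seen, for its high level.

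All 8 photosynthesis and chloroplast carbon genes tested had positive log2 FCs and 3 were called. RuBisCO activase CATHA_702 had 108, 146 and 135 CPM in leaf pair 4, against 63.1, 37.0 and 48.3 CPM in leaf pair 1 (log2 FC 1.39, SE 0.22). CATHA_4059, described as proton gradient regulation 5, a protein of cyclic electron flow, had a log2 FC of 1.71, and CATHA_3939, a fragment of the photosystem II protein D1, one of 2.98. The D1 gene is normally carried by the chloroplast, so a nuclear fragment may share reads with it.

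Of 22 cell wall genes, 9 rose and 1 fell, and the fall was lost without leaf pair 1 replicate 3 or leaf pair 4 replicate 2 or 3. CATHA_3498, a xyloglucan endotransglucosylase/hydrolase that cuts and rejoins wall polymers, had 25.8, 34.0 and 16.7 CPM in leaf pair 4, against 1.41, 0.06 and 0.08 CPM in leaf pair 1 (log2 FC 5.54, SE 0.89, edgeR adjusted p = 0.000397). An expansin, CATHA_4556, had 59.3, 116 and 48.7 CPM in leaf pair 4, against 14.6, 11.8 and 12.2 CPM in leaf pair 1 (log2 FC 2.54, SE 0.41). A pectinesterase, CATHA_24953, had 238, 360 and 140 CPM in leaf pair 4, against 82.6, 44.6 and 50.5 CPM in leaf pair 1 (log2 FC 2.05). In all 3 genes plant 2 was the highest of the older leaves, and no sample overlapped.

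Cell division genes held some of the strongest falls, but their list did not go one way. Of 15 cell division and cytoskeleton genes, 4 fell and 4 rose, and 2 rose without leaf pair 1 replicate 2 or 3 or leaf pair 4 replicate 2. CATHA_18851, a histone domain protein, had 6.79, 2.26 and 1.26 CPM in leaf pair 4, against 53.5, 117 and 73.5 CPM in leaf pair 1, a 23.1-fold fall (log2 FC -4.53, SE 0.55, edgeR adjusted p = 8.58e-05). CATHA_15713, a regulatory subunit of cyclin-dependent kinases, fell with a log2 FC of -1.61. CATHA_10164, described as myosin-2, had 2.57, 0.28 and 0.36 CPM in leaf pair 4, against 20.1, 36.1 and 27.8 CPM in leaf pair 1 (log2 FC -4.65). CATHA_15860, a subunit of the anaphase-promoting complex, rose with a log2 FC of 1.57.

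Outside that list, CATHA_25955, a dUTP nucleotidohydrolase, which keeps uracil out of DNA, had 3.23, 2.07 and 2.08 CPM in leaf pair 4, against 14.7, 44.1 and 28.4 CPM in leaf pair 1 (log2 FC -3.55, SE 0.46). CATHA_9693, described as a meiosis-specific nuclear structural protein, fell with a log2 FC of -3.97, and CATHA_19649, with tetratricopeptide repeats, with one of -4.95. In each of these, leaf pair 1 of plant 2 was the highest and that of plant 1 the lowest of the young leaves. CATHA_15115, a xylosyltransferase, fell with a log2 FC of -3.62.

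Lipids of the leaf surface moved both ways, with 5 of 15 wax, cutin and suberin genes higher and 3 lower. CATHA_20099, a 3-ketoacyl-CoA synthase of the kind that extends fatty acids for wax, had 68.0, 39.1 and 49.2 CPM in leaf pair 4, against 176, 245 and 250 CPM in leaf pair 1 (log2 FC -2.10, SE 0.20, edgeR adjusted p = 3.88e-05). CATHA_34276, a GDSL esterase/lipase, had 113, 42.6 and 23.1 CPM in leaf pair 4, against 349, 394 and 431 CPM in leaf pair 1 (log2 FC -2.71, SE 0.57). CATHA_22663, an acyl-CoA sterol acyltransferase, rose with a log2 FC of 2.26 and CATHA_20023, another GDSL esterase/lipase, with one of 2.604.

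The flavonoid list was divided evenly, with 3 of 15 genes higher and 3 lower. CATHA_19743, of the chalcone isomerase family, had 5.30, 1.23 and 1.35 CPM in leaf pair 4, against 34.5, 68.9 and 48.4 CPM in leaf pair 1 (log2 FC -4.23, SE 0.45). CATHA_12622, a flavonoid 3-hydroxylase, had 30.4, 38.8 and 43.1 CPM in leaf pair 4, against 12.8, 6.12 and 6.35 CPM in leaf pair 1 (log2 FC 2.15, SE 0.25).

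Defence and perception genes rose about as often as described genes at large. Of 35 receptor kinases and resistance proteins, 8 (22.9%) rose and 2 (5.71%) fell, and with total counts alone 5 rose and 4 fell. Without leaf pair 4 replicate 2 the rises were 5, and without leaf pair 4 replicate 1 the falls were 5, while leaving out replicate 3 of either leaf pair gave 1 fall. Of 15 defence proteins, 4 (26.7%) rose and 2 (13.3%) fell. The falls were 1 without leaf pair 1 replicate 2 or 3 or leaf pair 4 replicate 2, and 0 without leaf pair 4 replicate 3. CATHA_29872, related to the nematode resistance protein HSPRO2, had 316, 350 and 239.5 CPM in leaf pair 4, against 53.2, 9.60 and 10.6 CPM in leaf pair 1, a 12.3-fold rise (log2 FC 3.62, SE 0.56, edgeR adjusted p = 0.000327). CATHA_31098, a LysM receptor-like kinase of a family that binds chitin-like sugars, rose with a log2 FC of 2.64, and CATHA_21801, with the NB-ARC domain of resistance proteins, with one of 2.52. CATHA_7255, a leucine-rich repeat receptor kinase, had 12.01, 22.7 and 14.9 CPM in leaf pair 4, against 2.37, 0.64 and 0.84 CPM in leaf pair 1 (log2 FC 3.65).

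Nitrogen, protein turnover and stress genes also rose in shares close to that of described genes at large. Of 16 nitrogen and sulfur genes, 4 rose and 2 fell, and with total counts alone 2 rose. Of 24 proteases and autophagy proteins, 4 rose and 2 fell. A high-affinity nitrate transporter, CATHA_10418, had 78.6, 74.0 and 76.9 CPM in leaf pair 4, against 26.2, 4.96 and 10.8 CPM in leaf pair 1 (log2 FC 2.45, SE 0.57). An FTSH 6 zinc metalloprotease of the chloroplast, CATHA_22873, of a family that degrades damaged thylakoid proteins, had 17.9, 33.1 and 36.5 CPM in leaf pair 4, against 5.58, 1.55 and 1.45 CPM in leaf pair 1 (log2 FC 3.32, SE 0.43). The heat stress factor A-3, CATHA_36735, rose with a log2 FC of 2.07. Of 29 heat shock proteins and chaperones, 6 rose and 3 fell, with a median log2 FC of -0.11, and 1 fell without leaf pair 1 replicate 2 or leaf pair 4 replicate 3. Of 16 seed and desiccation proteins, 4 rose, and without plant 1 or its leaf pair 1 alone the rises were 7.

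Hormone genes included CATHA_10059, an abscisic acid 8'-hydroxylase, the enzyme class that breaks the hormone down, with 5.30, 11.4 and 13.1 CPM in leaf pair 4, against 1.99, 0.26 and 0.76 CPM in leaf pair 1 (log2 FC 3.28, SE 0.55). CATHA_29269, isochorismate synthase, on a route to salicylic acid, fell to 10.8, 8.29 and 6.95 CPM in leaf pair 4, against 26.0, 33.4 and 34.3 CPM in leaf pair 1 (log2 FC -1.84, SE 0.20). Of the hormone list, 5 of 15 rose and 2 fell. Among 18 glycosyltransferases tested, 7 rose. Of those with at least 5 CPM in the higher leaf pair, CATHA_35587 had the largest log2 FC (3.00) and CATHA_14685 the next (2.64). Of 16 calcium signalling genes, 4 rose and 1 fell, and the fall was lost without leaf pair 1 replicate 3 or leaf pair 4 replicate 2 or 3.

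Of 10 carriers of the MATE and purine permease families, 1 was called. CATHA_14962, described as purine permease 3, fell to 1.66, 1.23 and 0.63 CPM in leaf pair 4, against 8.85, 16.3 and 10.7 CPM in leaf pair 1 (log2 FC -3.33, SE 0.51). With all samples it was the sole call, and 1 further member was called higher without leaf pair 1 replicate 1 or leaf pair 4 replicate 1 or 3. In the other lists, 3 of 18 cytochromes P450 (5 without leaf pair 1 replicate 1), 1 of 5 class III peroxidases and 3 of 12 regulators of epidermis and leaf form were higher.

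Among 76 further transcription factors tested, which the study had selected as candidates in idioblasts, 16 rose and 11 fell. The strongest fall was that of a GARP factor, CATHA_32684, with 0.33, 0.09 and 0.27 CPM in leaf pair 4, against 7.95, 16.4 and 13.8 CPM in leaf pair 1 (log2 FC -5.69, SE 0.44, edgeR adjusted p = 2.37e-05). The strongest rise was that of a NAC factor, CATHA_26934, with 19.9, 28.5 and 34.7 CPM in leaf pair 4, against 2.31, 1.74 and 0.08 CPM in leaf pair 1 (log2 FC 4.28, SE 0.57). NAC factors are known as regulators of leaf ageing in other plants, a role that was not tested here. Of the candidates tested, 3 of 5 NAC, 3 of 5 C2H2 and 3 of 8 C2C2 factors rose. Of all 76 candidates 21.1% rose, against 21.9% of described genes and 11.5% of all genes tested. The shares that fell were 14.5%, 9.73% and 10.8%. Of 17 MYB factors, 4 fell. The homeobox protein knotted-1-like 3, CATHA_27845, of a family that patterns shoots, had 59.6, 85.1 and 46.3 CPM in leaf pair 4, against 13.4, 4.70 and 4.74 CPM in leaf pair 1 (log2 FC 3.05, SE 0.38).

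**Figure D4:**
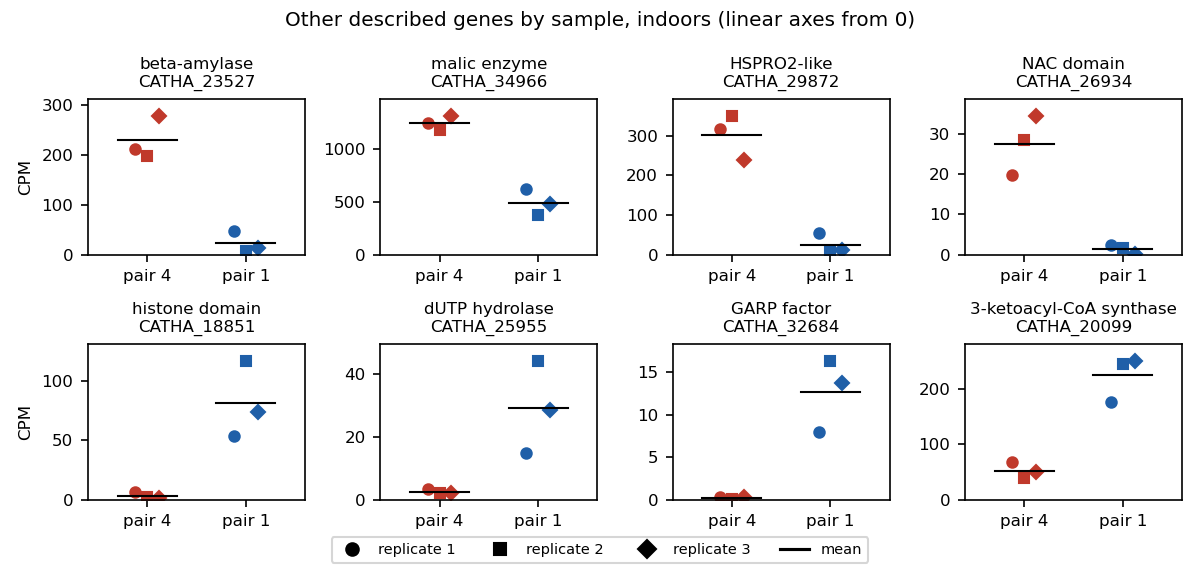
The plot of levels by sample outside the alkaloid pathway shows CPM of 8 described genes (linear axes from 0) in leaf pair 4 (left, red) and leaf pair 1 (right, blue), 3 plants each, with the mean as a line. The upper row lies higher and the lower row lower in leaf pair 4, and leaf pair 1 of plant 1 (circle) lies nearest to leaf pair 4 in every panel.

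Among described genes with at least 10 CPM in leaf pair 4 and no overlap of the groups, the others with the largest rises were, each with its log2 FC, CATHA_991, an adenylate-forming reductase (5.62), CATHA_6372, a clathrin assembly protein (4.96), CATHA_20233, a mitogen-activated kinase kinase kinase (4.82), CATHA_19988, with an EGF-like domain (4.80), CATHA_26762, an alpha-N-acetylglucosaminidase (3.99), and CATHA_19986, a protein kinase (3.87). In CATHA_991 the levels were 27.8, 27.5 and 22.2 CPM in leaf pair 4, against 0.90, 0.45 and 0.15 CPM in leaf pair 1. By the same limits but without regard to a description, CATHA_3766 (log2 FC 7.08) and CATHA_13847 (log2 FC 6.34) rose most.

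CATHA_6575 and CATHA_2963, also without a description, fell most by the same limits, and their young leaves differed greatly. Both were at 0 counts in all of leaf pair 4, and their calls (edgeR adjusted p = 0.0162 and 0.0144) depended on single libraries. That of CATHA_6575 was lost without leaf pair 4 replicate 1, 2 or 3, at adjusted p of 0.0608, 0.0534 and 0.0571, and that of CATHA_2963 without replicate 1 or 3, at 0.0554 and 0.0522. CATHA_6575 had 1.41, 15.7 and 208 CPM in leaf pair 1, and CATHA_2963 had 2.05, 12.6 and 185 CPM. Against a floor of 3 counts over the leaf pair 4 group they were at least 843-fold and at least 749-fold lower, and without leaf pair 1 replicate 3 at least 96.1-fold and at least 82.3-fold. Of the 1862 genes called lower, 17 had no count in leaf pair 4.

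The change with leaf position could also be set against that of outdoor plants, by testing the indoor log2 FC minus the outdoor one in the same fit. The difference was positive and called for 563 genes (3.25%) and negative and called for 128 (0.74%), and these counts depended on the samples used, with 137 and 61 in the fit over 21 samples. A positive difference says that leaf pair 4 stood higher, relative to leaf pair 1, indoors than outdoors. Of the 67 MIA genes, 10 were called positive and none negative by edgeR, and 49 had a positive difference, against 10381 of the 17299 genes tested. DESeq2 called 12 MIA genes positive and none negative, and 3 of the 67 had a negative difference at an unadjusted p under 0.05 by edgeR.

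**Figure D5:**
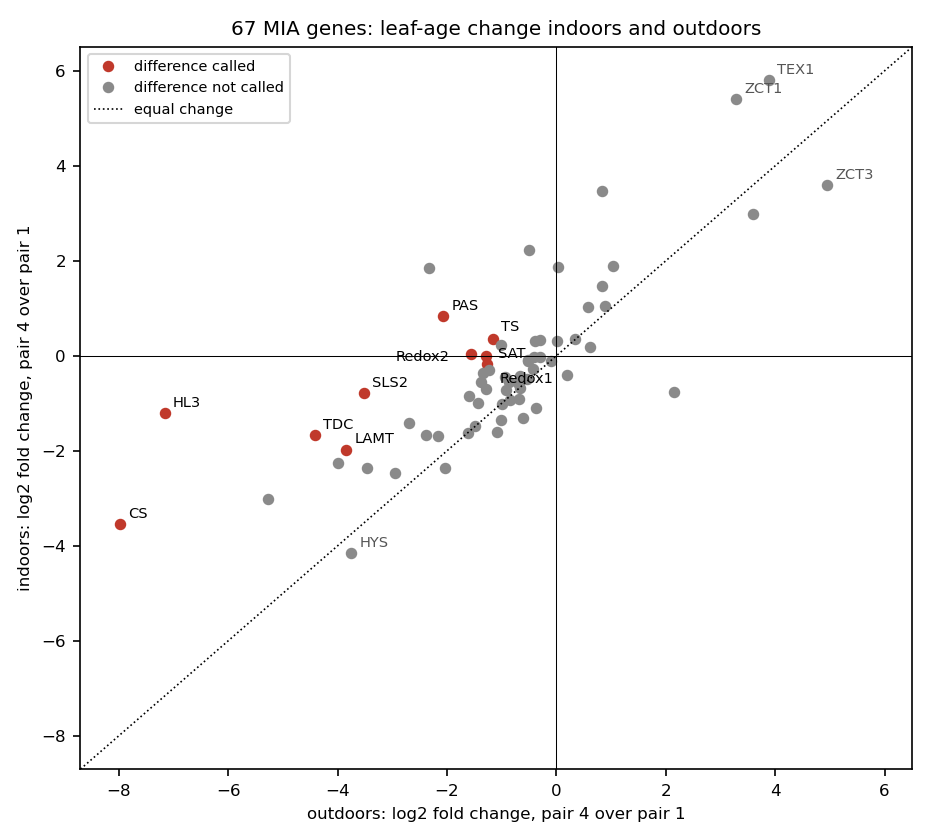
The plot of 2 growth conditions shows the log2 fold change of leaf pair 4 over leaf pair 1 indoors (vertical axis) and outdoors (horizontal axis) for the 67 MIA genes, with the 10 whose difference was called in red and equal change as a dotted line. All 10 lie above the line.

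All 10 were lower in leaf pair 4 than in leaf pair 1 outdoors, while 6 of them, PAS, Redox2, SAT, TS, Redox1 and SLS2, stayed within 2-fold indoors. PAS gave the clearest case among them: the indoor levels above compare with 6.21 to 8.10 CPM in leaf pair 4 and 26.2 to 35.1 CPM in leaf pair 1 outdoors, a difference in log2 FC of 2.91 (SE 0.23, edgeR adjusted p = 0.000226). Redox2 had 163, 158 and 135 CPM in leaf pair 4 and 154, 141 and 152 CPM in leaf pair 1 indoors, but 44.1 to 48.7 CPM in leaf pair 4 and 125 to 147 CPM in leaf pair 1 outdoors (difference 1.59, SE 0.14). SAT, TS and Redox1 showed the same pattern, with differences of 1.28, 1.52 and 1.09.

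CS fell in both conditions and further outdoors, where leaf pair 4 was at 0.66 to 1.26 CPM and leaf pair 1 at 212 to 301 CPM (difference 4.44, SE 0.85). The difference was not called with the plant as a block (edgeR adjusted p = 0.0523), nor was that of TDC (2.75, and adjusted p = 0.0507 with the block). The TDC difference was also lost in 8 of the 12 fits that left out 1 sample (adjusted p of 0.0578 to 0.0881), and that of CS in 1 (0.0523). LAMT and SLS2 had differences of 1.86 and 2.72, and that of LAMT was not called without any one of 9 samples in turn (adjusted p of 0.0502 to 0.105). HYS, T16H2, ZCT1, ZCT3 and MYC had differences that were not called, with adjusted p of 0.631, 0.354, 0.228, 0.611 and 0.133 by edgeR, which does not show that they changed alike.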

How the data were processed

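Leaf RNA (TruSeq libraries, Illumina read pairs) was deposited by the authors as raw counts from featureCounts 2.0.1, made after trimming (Trimmomatic 0.39) and HISAT2 alignment. The second version of the genome assembly was used. No option for strand or multi-mapped reads is given, so antisense, overlapping and near-identical genes are uncertain. Expected counts of the Nanopore libraries, which the authors deposited after minimap2 and Salmon 1.4.0, were used as CPM of the library total, without a test.

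Genes were filtered with filterByExpr, scaled by TMM and fitted with edgeR 4.0.16 (robust glmQLFit, glmQLFTest; R 4.3.3) over the 12 Illumina samples of leaf pairs 4 and 1 in both conditions, which share 1 estimate of spread. Benjamini-Hochberg adjustment covered all genes tested. The thresholds are those of the study, which fitted DESeq2 and included protoplast samples, while edgeR was fixed here as the main test. Standard errors are the log2 FC divided by the root of F. Scripts were tested on simulated data. DESeq2 1.42.0, other scalings, no filter, other samples in the fit, a plant block and leaving out each sample were the alternatives.

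Members and lists were chosen with earlier results of these data known. Named genes are the annotated MIA genes, in each direction the 10 described genes with the largest log2 FC among non-overlapping calls with 10 CPM or more where higher and 2 whatever the description, up to 4 called genes of at least 5 CPM per list, and 5 described genes per direction for the difference between conditions. The malic enzyme and the genes named from the idioblast, transcription factor and other lists beyond this rule were named after their values were seen. Descriptions came from the study's readable tables, for 1300 genes. From the RefSeq gene table, 0 IDs matched, so no positions or sequences are given.

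The methods say that all leaf pairs of a condition came from the same 3 plants, which pairs equal numbers. Deviations from the group means correlated at -0.0109, 0.195 and 0.259 for equal plant numbers indoors and 0.326 to 0.438 outdoors, against -0.268 to 0.0318 for unequal numbers indoors. The main fit had no block, since the methods name none. No replicate pair agreed within counting noise. With 3 plants per group, p-values of the main fit rest on the spread between samples within groups, pooled over the 12 samples. They do not use the pairing of leaf pairs within a plant, which the fit with the plant as a block does. The other samples of the series were not used here, except in the fit over 21 samples.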

Additional observations from a re-analysis of the deposited data

Results flagged for a closer look

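The change from leaf pair 1 to leaf pair 4 differed between indoor and outdoor plants for 23 of the genes named by the rule, by edgeR's test of the difference itself. Some of these were named because their difference was called, so the count is set in part by the rule. Of all 17299 genes tested, 691 (3.99%) were called. The values below are the indoor log2 FC minus the outdoor one, and no explanation was tested.

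Among the MIA genes the differences were all positive. They were 5.96 for HL3, 4.44 for CS, 2.91 for PAS, 2.75 for TDC, 2.72 for SLS2, 1.86 for LAMT, 1.59 for Redox2, 1.52 for TS, 1.28 for SAT and 1.09 for Redox1. HL3 stood at 0 to 0.09 CPM in leaf pair 4 outdoors, so its fitted value is no bound. The difference of Redox1 was not called without leaf pair 1 outdoors replicate 2 (0.89), nor that of CS without leaf pair 4 outdoors replicate 1 (4.19, edgeR adjusted p = 0.0523). Leaving out 1 of the 12 samples in turn lost the call of LAMT in 9 fits and that of TDC in 8.

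Positive differences were also found for CATHA_34276, a GDSL esterase/lipase (4.25), CATHA_991, an adenylate-forming reductase (4.17), CATHA_22855, a glycine-rich wall protein (3.42), CATHA_14685, a glycosyltransferase (1.86), CATHA_5631, another glycosyltransferase (1.39), CATHA_702, RuBisCO activase (1.14), and CATHA_22663, a sterol acyltransferase (1.13). With the plant as a block, CATHA_34276, CATHA_5631 and CATHA_702 were not called, with edgeR adjusted p of 0.0614, 0.0536 and 0.0694. Leaving out 1 of the 12 samples in turn lost the call of CATHA_702 in 10 fits (edgeR adjusted p up to 0.118), of CATHA_5631 in 7 (up to 0.101), of CATHA_34276 in 5 (up to 0.067), of CATHA_22855 in 4, and of CATHA_14685 and CATHA_22663 in 3 each. That of CATHA_991 was kept in all 12. CATHA_34276 was at 0.27 to 4.62 CPM in leaf pair 4 and 226 to 263 CPM in leaf pair 1 outdoors.

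Negative differences were found for CATHA_28259, an asparaginase-like peptidase (-3.63), CATHA_13429, an L-allo-threonine aldolase (-2.13), CATHA_3590, an F-box protein (-2.03), CATHA_26987, a nodulin-related protein (-1.74), CATHA_17865, a pentatricopeptide repeat protein (-1.64), and CATHA_13484, of the chalcone isomerase family (-1.63). The calls of CATHA_26987, CATHA_17865 and CATHA_13484 were lost in 10, 9 and 7 of the 12 fits that left out 1 sample (edgeR adjusted p up to 0.109, 0.0647 and 0.066), and those of CATHA_28259, CATHA_13429 and CATHA_3590 were kept in all 12. CATHA_28259 had 3.65, 1.41 and 2.35 CPM in leaf pair 4 and 12, 12.1 and 12.6 CPM in leaf pair 1 indoors, but 50.8 to 120 CPM in leaf pair 4 and 12.9 to 43.0 CPM in leaf pair 1 outdoors.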

How the results depend on the processing

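The counts of genes higher and lower in leaf pair 4 kept within 1.5 times of 1995 and 1862 under every alternative run, at 1711 to 2342 and 1652 to 2092 when 1 library was left out. No named gene that was called changed sign. Some that were not called did, and with total counts alone Redox2, HL4 and GBF1 went from log2 FCs of 0.03, 0.23 and 0.18 to -0.21, -0.02 and -0.05. The difference between conditions was less stable. Its 563 positive and 128 negative calls became 137 and 61 in the fit over 21 samples, the positive ones 333 with total counts alone and the negative ones 213 by DESeq2, and leaving out 1 library gave 159 to 830 and 48 to 163. The cause was not tested. With the plant as a replicate block, 2057 genes were higher and 1895 lower, and the difference gave 526 and 130. Among the named genes the block changed the calls given beside Bis2, ORCA5, CS, TDC, CATHA_34276, CATHA_5631 and CATHA_702, and added calls of the difference for 16NMT, CATHA_20978, CATHA_15667 and CATHA_32840. Total counts alone gave 25 lower MIA genes in place of 20, and without leaf pair 1 replicate 2, 6 rather than 11 were higher. Leaving out plant 1 from both leaf pairs was chosen after seeing the data. Genes at a few counts, such as TEX1 and T16H1 in leaf pair 1, are limited by depth.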
